A study of Mus musculus with 2 samples.

Results

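The guidance genes described here are the semaphorins with their plexin and neuropilin receptors, the ephrins with their Eph receptors, the Slits with their Robo receptors, and the netrins with Dcc, neogenin and the Unc5 receptors. Their open chromatin was read from a list of ATAC-Seq peaks of mouse cardiac progenitor cells (CPCs), in which each peak carries the symbol of 1 gene and its distance from a start site of that gene. Peaks were taken by that symbol, by the first letters Sema and a digit, Plxna to Plxnd, Epha, Ephb, Efna, Efnb and Unc5, or by name for the neuropilins, Slits, Robos, netrins, Dcc and Neo1. This gave 163 of 26232 distinct peaks (0.621%) and 71 symbols. Of the 70 genes that make up the 9 families, 68 had at least 1 peak and together held 157 peaks. The other 6 peaks carried 3 symbols that were taken by their first letters but are not in the family lists used here. These were Unc50 (1 peak), Unc5cl (2 peaks) and Plxna4os1 (3 peaks), a noncoding RNA gene antisense to Plxna4.

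ATAC-Seq uses the Tn5 transposase, which inserts adapters where DNA is not covered by nucleosomes, so that a peak marks a stretch of accessible chromatin. The series held 1 group of 2 samples, CPCs at day 5 of differentiation, which the methods describe as separate differentiations. The cells came from a single embryonic stem cell line, E14 Tg(Nkx2-5-EmGFP), labelled strain C57BL/6, which carries a green fluorescent reporter of the cardiac gene Nkx2-5. It was kept on mouse embryonic fibroblast feeders before differentiation. The directed protocol in the methods used BMP4, Activin A, VEGF, bFGF and FGF10, and the treatment field of the labels named no further agent. The methods also give a hanging drop protocol that reaches CPCs at day 5, and their ATAC-Seq section does not name the protocol used. The hanging drop protocol ends with a sort for the reporter, and the directed one gives such a sort for RNA extraction. The ATAC-Seq section describes no sort, so whether these cells were sorted is not known. The series title names Isl1, whose loss was not analysed here. With 1 group there was no contrast between conditions, and the question that could be put to the list was which guidance genes lay in open chromatin in these cells, at how many places and where. The list gave no read count or peak height and no value for a single replicate, so depth was unknown and no test over samples could be made. Intervals given below are 95% Wilson intervals that cover counting error over genes or peaks only.

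Guidance proteins steer growing axons and migrating cells by attraction or repulsion. Semaphorins bind plexins, several of them with a neuropilin as co-receptor, and ephrins are held in the membrane and signal to Eph receptors on the neighbouring cell. Slits are secreted ligands of Robo receptors, and netrins act through Dcc, neogenin and the Unc5 receptors. In the cardiovascular system the same families are known for outflow tract septation (Sema3c, Plxnd1, Nrp1), for the separation of arteries from veins (Efnb2, Ephb4), for vessel branching (Unc5b, Sema3e, Robo4) and for shaping the heart tube and its chambers (Slit3, Robo1).

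Peaks away from start sites carried the words of several transcription factor motifs, and 6 of them are printed because they belong to genes with cardiovascular roles and hold 3 or more different words in a small window. Each line gives the central 300 bp of a peak from the mm9 assembly (NCBIM37), 5′ to 3′ on the plus strand, with the motif words in capitals on whichever strand they were found. The words searched were AGATAA for GATA factors, CTAATG for ISL1, CACTTNA for NKX2-5, GGAATG for TEAD factors, CATCTG for the E-box bound by HAND factors, TGANTCA for AP-1 and GGGCGG for the GC box. These 6 windows were picked after their letters were seen from 8 that met the rule, and a match is a run of letters, not evidence of binding.
Efnb2, chr8:8509463-8509762: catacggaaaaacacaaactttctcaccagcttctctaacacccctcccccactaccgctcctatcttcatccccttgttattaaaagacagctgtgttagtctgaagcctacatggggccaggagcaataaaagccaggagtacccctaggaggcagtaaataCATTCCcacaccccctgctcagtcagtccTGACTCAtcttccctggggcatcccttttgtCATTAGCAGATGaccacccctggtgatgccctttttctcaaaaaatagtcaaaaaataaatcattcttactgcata
Slit3, chr11:35082541-35082840: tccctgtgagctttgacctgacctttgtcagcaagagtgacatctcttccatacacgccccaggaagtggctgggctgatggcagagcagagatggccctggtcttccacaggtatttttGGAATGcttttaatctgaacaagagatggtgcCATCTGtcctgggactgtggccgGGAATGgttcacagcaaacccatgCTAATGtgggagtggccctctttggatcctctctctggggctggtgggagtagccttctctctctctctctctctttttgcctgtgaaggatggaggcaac
Nrp2, chr1:62228272-62228571: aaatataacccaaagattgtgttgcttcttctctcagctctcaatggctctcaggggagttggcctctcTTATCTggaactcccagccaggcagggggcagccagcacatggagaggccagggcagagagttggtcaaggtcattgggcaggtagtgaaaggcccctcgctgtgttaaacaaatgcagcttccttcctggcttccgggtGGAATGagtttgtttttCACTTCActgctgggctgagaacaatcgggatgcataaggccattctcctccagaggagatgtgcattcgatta
Sema3e, chr5:13993017-13993316: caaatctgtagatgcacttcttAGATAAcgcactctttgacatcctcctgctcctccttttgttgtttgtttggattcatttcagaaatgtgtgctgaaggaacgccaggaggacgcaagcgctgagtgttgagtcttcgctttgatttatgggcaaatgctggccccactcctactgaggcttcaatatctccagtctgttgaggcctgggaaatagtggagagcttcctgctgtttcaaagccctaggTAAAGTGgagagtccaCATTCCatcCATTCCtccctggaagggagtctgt
Robo1, chr16:72670585-72670884: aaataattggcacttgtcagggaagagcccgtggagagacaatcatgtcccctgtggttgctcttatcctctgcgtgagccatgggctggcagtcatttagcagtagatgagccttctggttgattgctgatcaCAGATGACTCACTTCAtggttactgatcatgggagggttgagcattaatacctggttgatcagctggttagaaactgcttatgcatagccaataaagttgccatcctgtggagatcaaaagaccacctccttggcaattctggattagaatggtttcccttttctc
Unc5b, chr10:60277588-60277887: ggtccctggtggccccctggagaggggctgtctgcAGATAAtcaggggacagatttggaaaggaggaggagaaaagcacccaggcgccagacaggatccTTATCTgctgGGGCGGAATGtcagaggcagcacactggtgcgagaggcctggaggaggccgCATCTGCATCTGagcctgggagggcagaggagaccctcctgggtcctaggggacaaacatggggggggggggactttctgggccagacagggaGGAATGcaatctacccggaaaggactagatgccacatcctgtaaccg
The Efnb2 window lay 151161 bp downstream of the start site in no coding gene. It held 4 different words, those of TEAD, AP-1, ISL1 and the E-box, the last 2 side by side. Unc5b, with an intronic peak 16592 bp downstream, also held 4 words, among them a tandem pair of E-box words and a GC box that shares letters with a TEAD word. In the Robo1 window, an intronic site 7340 bp downstream, the AP-1 word overlapped the E-box word before it and the NKX2-5 word after it, in a single run of capitals. Slit3 (intron, 147732 bp downstream) held ISL1, TEAD and E-box words. Nrp2 (521470 bp upstream, inside the neighbouring gene Pard3b) and Sema3e (32110 bp upstream, in no coding gene) both held GATA, NKX2-5 and TEAD words.

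Start site peaks had another composition, which 3 short stretches illustrate. They are the central 60 bp of the start site peaks of Efnb2, Ephb3 and Ntn4, again on the plus strand of mm9, with each CG dinucleotide in capitals. Stretches overlapping an annotated exon were left out when these were drawn.
Efnb2, chr8:8660362-8660421: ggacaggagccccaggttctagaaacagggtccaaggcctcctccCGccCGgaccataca
Ephb3, chr16:21204695-21204754: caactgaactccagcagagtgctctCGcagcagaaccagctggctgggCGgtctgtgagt
Ntn4, chr10:93103723-93103782: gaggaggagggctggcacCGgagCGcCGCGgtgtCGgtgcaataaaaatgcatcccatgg
Ntn4, which encodes netrin 4, held 5 CG dinucleotides in its 60 bp, and the Efnb2 and Ephb3 stretches held 2 each. Over whole peaks, the 60 guidance gene peaks within 1 kb of a start site had a median GC content of 59.8% and a median observed over expected CpG ratio of 0.65. The 103 peaks beyond 1 kb had medians of 50.3% and 0.22. The same medians over all peaks were 58.6% and 0.68 within 1 kb, and 51.4% and 0.24 beyond.

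Nearly every guidance gene had a peak. The share was 68 of 70 family genes (97.1%, 90.2 to 99.2), beside 62.5% of 21900 protein coding genes of the reference. All 35 ligand genes had at least 1 peak, and so did 33 of 35 receptor genes. The exceptions were Plxnb3, an X-linked plexin, and Robo4, the Robo receptor known from endothelial cells. No peak lay in either gene. The closest peak to a Plxnb3 start site was 29799 bp away (chrX:71031442-71033032, assigned to Idh3g), and the closest to Robo4 was 17271 bp away (chr9:37191787-37192635, assigned to Hepacam). A gene without a peak here is one to which no region shared by both replicates was assigned, which is not a measurement of closed chromatin.

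Guidance genes with a peak had 2.31 peaks on average and a median of 2, beside a mean of 1.71 and a median of 1 over the 15351 genes with a peak. A single peak was found for 28 of the 68 genes (41.2%, beside 60.8% of all genes with a peak), 17 had 2 and 11 had 3. The remaining 12 genes (17.6%, 10.4 to 28.4) had 4 or more, beside 7.62% of all genes with a peak. With peaks assigned to the nearest GENCODE coding start site there were 17 such guidance genes, beside 9.11% of all genes with a peak. The 12 held 62 of the 157 peaks. They were Efnb2 with 8 peaks, Efnb1 with 7, Sema3e, Nrp2 and Slit3 with 6 each, Slit1 with 5, and Sema3f, Sema4b, Sema5a, Ephb2, Ephb3 and Robo1 with 4 each. Guidance genes are long, with a median of 62.8 kb for those with a peak against 24.5 kb for the 12675 coding genes with a peak that could be measured. Among genes of at least 100 kb the means were close, 2.56 peaks for 32 guidance genes and 2.42 for 1946 genes in all. Among shorter genes they were 2.08 for 36 guidance genes and 1.59 for 10729 genes. Across genes, which are not independent replicates, the Spearman correlation between gene length and number of peaks was 0.27 for guidance genes and 0.23 for all coding genes with a peak.

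**Figure D1:**
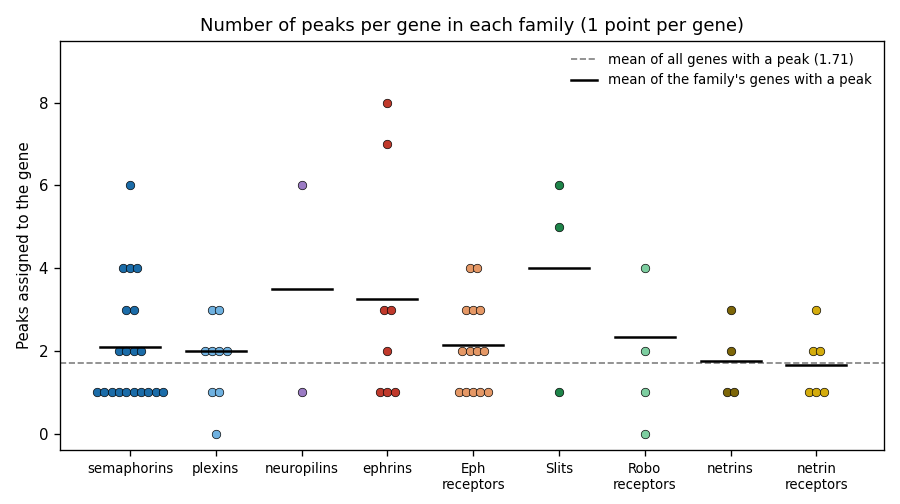
Number of peaks assigned to each gene (vertical axis) in the 9 guidance gene families, 1 point per gene, with a black bar at the mean of the family's genes with a peak and a dashed line at the mean of all genes with a peak (1.71). Slits (mean 4.00), neuropilins (3.50) and ephrins (3.25) stood highest in the deposited assignment, each through 1 or 2 genes with 5 or more peaks, and the points at 0 are Plxnb3 and Robo4.

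Start sites were mostly open. A peak overlapped the 1000 bp around the outermost coding start site of 54 of 70 family genes (77.1%, 66.0 to 85.4), beside 53.5% of all coding genes. CpG-rich promoters made up 49 of the 70, and 41 of these had a peak (83.7%, 71.0 to 91.5), beside 89.4% of CpG-rich promoters in all. The 21 CpG-poor promoters had a peak in 13 cases (61.9%, 40.9 to 79.2), beside 24.7% of all CpG-poor promoters. Over all coding genes 9965 of 22359 promoters were CpG-rich, a smaller part than among the guidance genes, so shares are given within each class. The classes are still wide. CpG ratios of the 13 ran from 0.18 (Sema3g) to 0.59 (Ntn1 and Sema4f), just under the cut of 0.6. Epha3, at 0.73, missed only the GC limit, with 49.7%. CpG-poor promoters without a peak ran from 0.10 (Plxnb3) to 0.57 (Dcc). Shares at equal CpG ratio were not measured, so the CpG-poor shares may not compare like promoters. CpG-poor promoters with a peak were those of Sema3d, Sema3f, Sema3g, Epha3, Robo2, Ntn1 and Ntn3, among others. Among the 68 genes with a peak, 12 (17.6%) had none within 1 kb of the assigned start site, beside 25.4% of all genes with a peak. Slit1, Nrp2, Ephb2, Epha2 and Plxnd1 were 5 of these.

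Away from start sites the peaks of these genes reached far. Within 1 kb lay 60 of 163 peaks (36.8%, 29.8 to 44.4), beside 44.9% of all peaks. Beyond 100 kb lay 28 (17.2%, 12.2 to 23.7), beside 8.20% of all peaks, 10 of them upstream and 18 downstream. Without the symbols outside the family lists, 25 of 157 lay beyond 100 kb. Between 1 and 100 kb there were 30 upstream (18.4%) and 45 downstream (27.6%), beside 21.1% and 25.8% of all peaks. Of the peaks beyond 1 kb, 43 had their midpoint in the body of their own gene (26.4% of the 163 peaks, beside 16.0%). For 3 of these 43 the midpoint fell in an exon, and overlap of a peak's edges with exons was not counted. In another coding gene lay 8 (4.91%, beside 9.77%), 3 of which were the Plxna4os1 peaks inside Plxna4. In no coding gene lay 52 (31.9%, beside 29.3%), and the bodies of noncoding genes were not looked at. A peak listed under a noncoding gene could therefore not count as lying in its own gene. The whole list holds such symbols, and among the guidance gene peaks only the 3 of Plxna4os1 carry one. The shares of all peaks in these 3 classes are thus not of a like set. For 156 of the 163 peaks (95.7%) the nearest coding start site of the GENCODE annotation was of the same symbol. The share of all peaks was 77.4%. Peaks listed under a noncoding gene could not match a coding start site, so these shares are not of a like set either. How much of their difference comes from such peaks was not measured. How the list chose a symbol for each peak was not stated, and whether a distant peak acts on that gene was not tested.

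**Figure D2:**
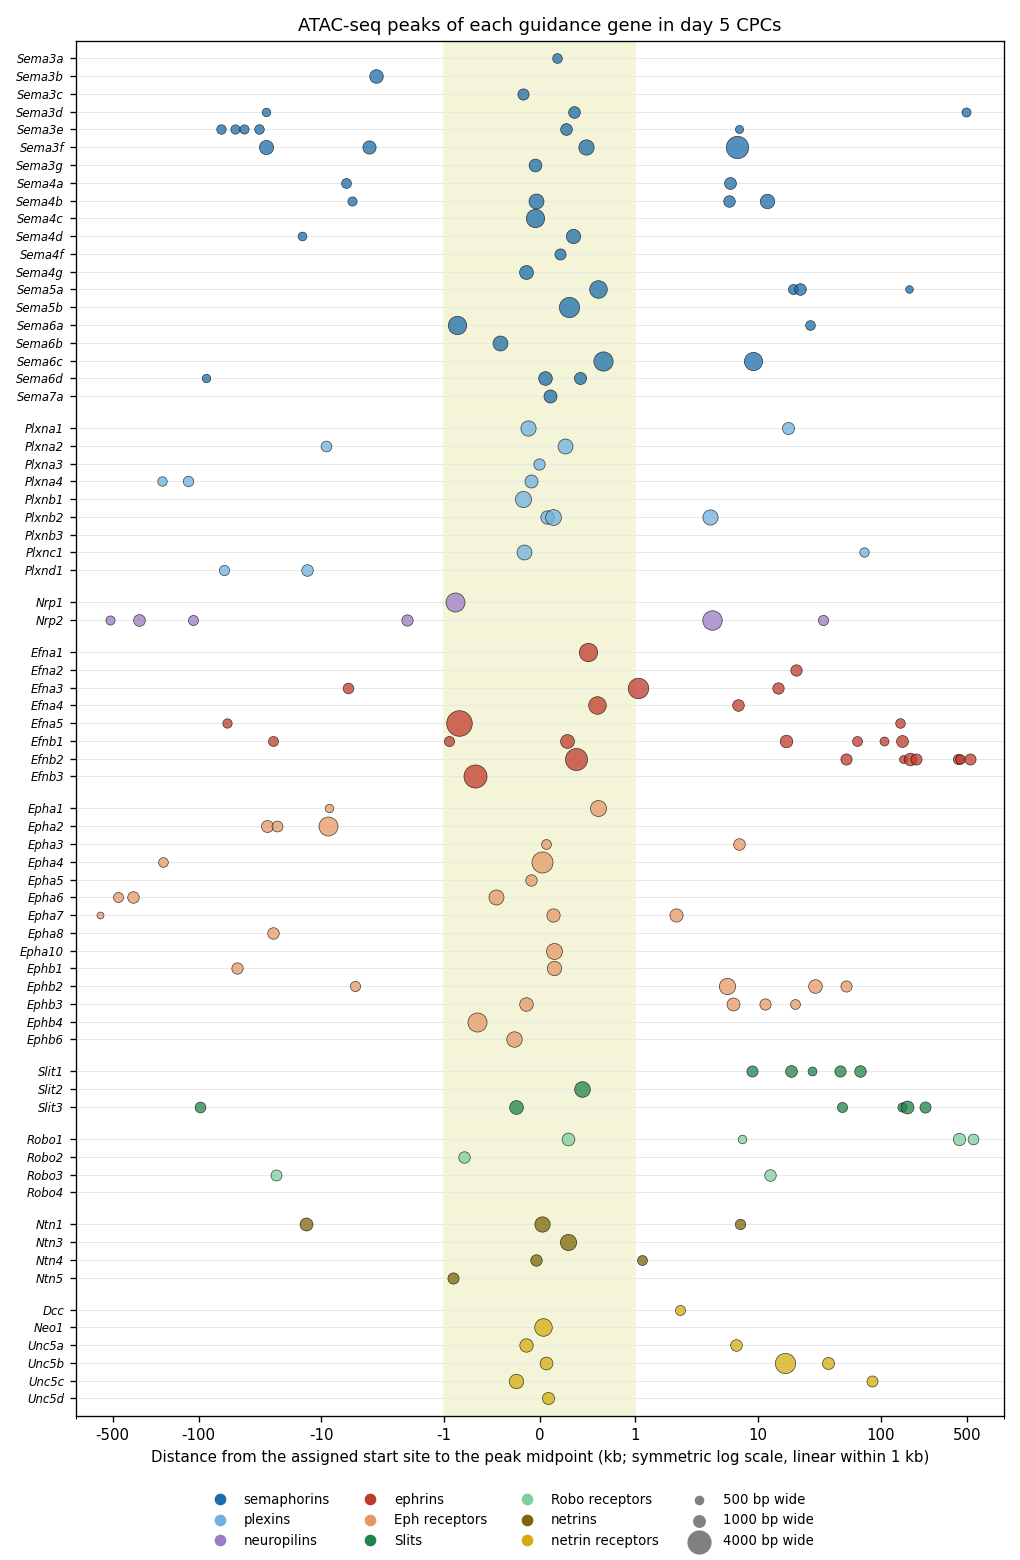
Each guidance gene peak by its distance from the assigned start site (horizontal axis, kb, symmetric log scale, linear within 1 kb) for the 70 family genes in rows, coloured by family, with circle area in proportion to peak width and the 1 kb around the start site shaded. Efnb2 and Slit1 show peaks downstream with none upstream, Nrp2 has no circle in the shaded strip, and Epha7 holds the most distant peak (-636 kb).

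Among the ligands, the 20 semaphorin genes held 42 peaks, 2.10 per gene, and 10 of them had 1 peak only. Sema3e, a secreted ligand of Plxnd1, had 6 (chr5:14025276-14256689, plus strand). The peak at its start site was 1091 bp wide. Upstream, 4 peaks of 666 to 725 bp followed each other at -32.1, -42.6, -50.3 and -65.4 kb, in no coding gene. A peak of 517 bp lay in an intron 7005 bp downstream. Sema3e thus combined a narrow start site peak with a row of narrow upstream peaks, the reverse of Sema3f.

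Sema3f, a ligand that signals through Nrp2, had 4 peaks, all wide. Its intronic peak 6.76 kb downstream measured 3955 bp, wider than 99.7% of all peaks in the list, and the start site peak measured 1862 bp. A pair of upstream peaks of 1389 and 1590 bp lay at -4.09 and -28.2 kb. Sema4b, a transmembrane semaphorin, had peaks at -5.63, -0.0360, 5.78 and 11.7 kb, so that the whole group fell within 18.5 kb. Sema5a, also transmembrane, had a start site peak of 2455 bp and 3 intronic peaks at 19.2, 21.9 and 169 kb, the last only 3960 bp from another GENCODE start site of the same gene.

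The semaphorins known from outflow tract and ventricle formation had 1 to 3 peaks each in the deposited assignment. Sema3c, which guides neural crest cells to the outflow tract, had a single peak of 991 bp at its start site (-0.179 kb). Sema3d had 3, at -28.2, 0.363 and 490 kb, the last of which has the predicted gene Gm10481 as its nearest GENCODE start site. Sema6d had start site peaks at 2 separate start sites, 1155 and 1482 bp wide, and a peak of 564 bp at -86.3 kb from the first. Sema6a had a start site peak of 2673 bp and an intronic peak 26.7 kb downstream. With peaks assigned to the nearest GENCODE coding start site, 4 more peaks came to Sema6a, 3 of which the list gives to Gm5095, and its number rose from 2 to 6.

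Ephrins held 26 peaks over 8 genes, and 15 of them belonged to Efnb1 and Efnb2. Efnb2, the ephrin that marks arterial endothelium and is known from outflow tract and vessel formation, had the most peaks of the guidance genes in the deposited assignment, with 8, whereas Nrp2 and Ephb3 had 9 each under GENCODE. The gene runs on the minus strand of chr8:8617434-8661239, and its start site peak of 3854 bp (chr8:8658465-8662318) was wider than 99.7% of all peaks. The other 7 peaks all lay downstream, past the end of the gene and in no coding gene, at 51.5, 151, 172, 194, 423, 440 and 529 kb. Their widths ran from 499 to 1265 bp, and the peak at 151 kb, printed above, was the narrowest. No Efnb2 peak lay upstream. The 8 peaks thus stretched over 531 kb, and Efnb2 was also the nearest GENCODE coding gene of each.

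Efnb1, the X-linked ephrin, had 7 peaks over 175 kb. A peak of 810 bp at -0.951 kb and one of 1528 bp at 0.289 kb stood next to each other at its start site. One peak lay upstream at -24.7 kb, and 4 lay beyond its last exon, at 16.9, 63.4, 106 and 150 kb. The peak at 63.4 kb held 4 different motif words, those of GATA, NKX2-5, the E-box and the GC box. Efnb3, the remaining B-class ephrin, had a single peak, but at 4225 bp it was wider than 99.8% of all peaks.

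In the ephrin A genes the peaks were fewer, 10 over 5 genes, and 2 of the 5 had none within 1 kb. Efna5 held the widest peak of all guidance genes, 5193 bp at its start site (-0.843 kb), wider than 99.9% of all peaks, and narrow peaks of 697 and 731 bp at -59.0 and 144 kb. Efna1, which is expressed in endothelium and heart, had 1 peak of 2681 bp at the start site. Its neighbours on chromosome 3, Efna3 and Efna4, had peaks of 3330 bp (1.04 kb from the start site) and 2448 bp (0.596 kb). Between these 2 genes lay a peak assigned to each, chr3:89132418-89133323 to Efna3 and chr3:89134497-89135570 to Efna4.

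The Slits had 12 peaks over 3 genes, the highest mean of the families in the deposited assignment (4.00, with 3.50 for the neuropilins). Under GENCODE the neuropilins stood higher, at 5.00 against 4.33. Slit3, which is known from the heart tube and the diaphragm, had 6 peaks over 328 kb, at -96.9 kb, at its start site (-250 bp), and at 47.9, 148, 162 and 230 kb. The 4 downstream peaks all lay in its introns, in a gene of 587 kb. Slit1 had 5 peaks, at 8.94, 18.7, 27.5, 46.1 and 67.3 kb, all of them intronic, and none at its CpG-rich promoter. Slit2 had the opposite arrangement, a single peak of 1951 bp at the start site of a gene of 323 kb.

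Netrin genes held 7 peaks over 4 genes. Ntn1, the founding netrin, had a start site peak of 1850 bp at 0.0280 kb, and peaks at -13.4 and 7.12 kb that both lay inside the gene, the first 609 bp from another of its GENCODE start sites. Another 3 peaks that the list gives to Mir6406 came to Ntn1 under the GENCODE assignment, which took it from 3 to 6. Ntn3, Ntn4 and Ntn5 had 1, 2 and 1.

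Receptors held 70 peaks, 2.12 per gene with a peak, beside 87 and 2.49 for the ligands. Under GENCODE that difference was gone, with 2.73 for receptors and 2.71 for ligands. The plexins held 16 over 8 genes and none had more than 3. Plxna2, a receptor of semaphorins in neural crest and myocardium, had a start site peak of 1772 bp and a peak at -9.09 kb. A further 3 peaks that the list assigns to the noncoding gene 4930503O07Rik had Plxna2 as their nearest coding start site, for a total of 5. Plxnd1, the endothelial receptor of Sema3e, had no peak at its CpG-rich promoter. Its 2 peaks lay at -13.1 and -61.9 kb, and the second was 76 bp from a start site of Tmcc1, to which GENCODE would assign it. Plxnb2 had start site peaks at 2 start sites, 1423 and 1974 bp wide, and an intronic peak of 1833 bp, 688 bp from another GENCODE start site. Plxna4 had 3 peaks of its own, and the 3 peaks of Plxna4os1 also lay inside the Plxna4 gene body and counted for it under GENCODE, where it had 5.

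The neuropilins differed from each other. Nrp1, the co-receptor for class 3 semaphorins and VEGF, had a single peak, 2863 bp wide and centred at -0.892 kb from the start site (chr8:130880651-130883513). Nrp2 had 6 (chr1:62749859-62865269, plus strand), and none of them within 1 kb of the start site. The closest were a peak of 1015 bp at -2.00 kb and one of 3013 bp at 4.23 kb, in an intron. Another intronic peak, of 833 bp, lay at 33.5 kb. The 3 others lay at -112, -305 and -521 kb, all inside the gene Pard3b, and for each of them Nrp2 was also the nearest GENCODE coding start site. Under that assignment Nrp2 rose to 9 through 3 peaks that the list gives to 4930487H11Rik.

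Eph receptors held 30 peaks over 14 genes. Ephb4, the venous partner of Efnb2, had 1 peak, of 2894 bp at the start site (-0.652 kb), where Efnb2 had 8. Ephb2 had 4 peaks, at -5.30, 5.59, 29.1 and 52.1 kb, the last 3 intronic, and none at its CpG-rich promoter. Ephb3 had a start site peak of 1464 bp and peaks at 6.27, 11.4 and 20.1 kb. The peak at 6.27 kb lay 30 bp from another GENCODE start site of Ephb3, and counts as beyond 1 kb by its assigned start site only. Its number depended on the assignment, since 5 peaks listed under Gm16863, Mir7680 and Teddm3 came to it under GENCODE and took it from 4 to 9. Epha3, which is known from the atrioventricular cushions, had peaks of 768 bp at the start site and 1075 bp in an intron 6999 bp downstream. Epha4 had the widest peak of the receptors, 3515 bp at 0.0230 kb, and a narrow one at -193 kb, and went from 2 to 5 peaks when those listed under Mir6343 and Mir6352 were counted. The narrowest guidance gene peak, 383 bp, belonged to Epha7 and was at the same time the most distant, at -636 kb.

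Of the Robo receptors, Robo1 had 4 peaks over 561 kb, at 0.294, 7.34, 434 and 560 kb. The last 2 lay in no coding gene past the end of Robo1. Robo2 had a single peak of 1041 bp at -0.795 kb, to which GENCODE would add 1 listed under Mir691, and Robo3 had 2, neither within 1 kb. Among the netrin receptors, Unc5b, which is expressed in arterial and tip endothelium, had 3 peaks, of 1300 bp at the start site, 3267 bp in an intron at 16.6 kb and 1156 bp in an intron at 36.9 kb. The intronic peak at 16.6 kb was the widest receptor peak beyond 1 kb. Dcc had a single intronic peak at 2.31 kb, and Neo1 had a single start site peak of 2444 bp.

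The 20 genes chosen for roles in heart and vessel formation held 56 peaks, 2.95 per gene with a peak, and the 50 other family genes held 101, 2.06 per gene with a peak. The median was 2 peaks in both groups. Of the 19 chosen genes with a peak, 6 had 1 peak and 5 had 4 or more (Efnb2, Sema3e, Nrp2, Slit3 and Robo1). Of the 49 others with a peak, 22 had 1 peak and 7 had 4 or more. The chosen genes were also longer, with a median of 174 kb beside 28.0 kb. Beyond 100 kb lay 15 of their 56 peaks, beside 10 of 101. The list was drawn from general knowledge with earlier results of these data known, so the numbers describe it only.

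Width differed with position. Guidance gene peaks within 1 kb of a start site had a median of 1650 bp (quartiles 1286 and 2078), beside 1326 bp (1072 and 1691) over all such peaks. Beyond 1 kb the medians were 976 and 911 bp. Over all positions they were 1068 and 1081 bp. Ephrin and Eph receptor genes supplied 4 of the 5 widest peaks, Efna5, Efnb3, Efnb2 and Epha4. No height or score stood beside the widths, so the strength of these peaks was not measured.

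**Figure D3:**
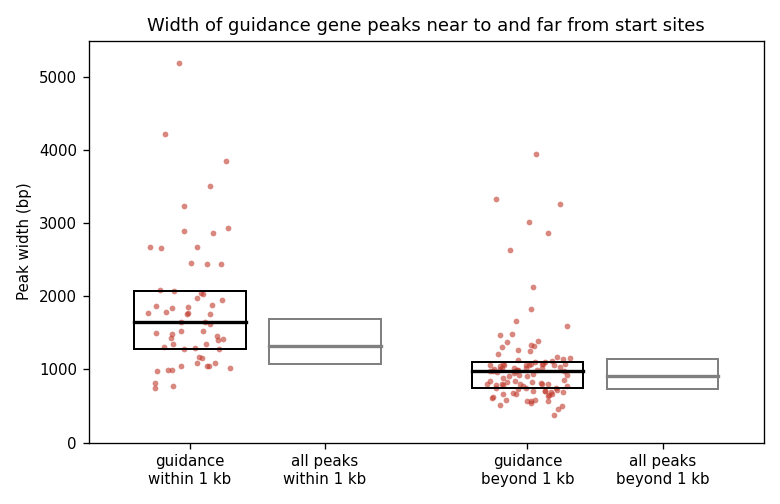
Width in bp (vertical axis) of guidance gene peaks within and beyond 1 kb of the assigned start site (red points, 1 per peak), with boxes from the lower to the upper quartile and a line at the median for guidance gene peaks (black) and all peaks (grey). Guidance gene peaks at start sites had a median of 1650 bp against 1326 bp for all peaks, and beyond 1 kb the medians were 976 and 911 bp.

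Motif words in the 103 peaks beyond 1 kb were counted in the central 300 bp, on both strands, beside the 14460 peaks of the whole list at such distances. The E-box word was present in 38 of 103 (36.9%, 28.2 to 46.5), beside 23.0% of all. For GATA the shares were 18.4% (12.1 to 27.0) and 14.6%, for TEAD 23.3% and 22.4%, for ISL1 9.71% and 9.65%, for NKX2-5 12.6% and 12.7%, and for the GC box 25.2% and 21.7%. AP-1 words were in 5.83% (2.70 to 12.1), beside 9.88%. For every word but the E-box the interval of the guidance gene peaks took in the share of all peaks. In the central 200 bp the E-box shares were 30.1% and 16.1%, and beyond 10 kb they were 32.4% (22.9 to 43.7) and 23.4%, so that the interval took in the share of all peaks at that distance. At least 1 of the 7 words was in 78.6% of the guidance gene peaks and 71.8% of all, and 3 or more different words were in 13.6% and 8.97%. Sharing of an E-box word among these peaks says nothing of which factor, if any, was bound.

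**Figure D4:**
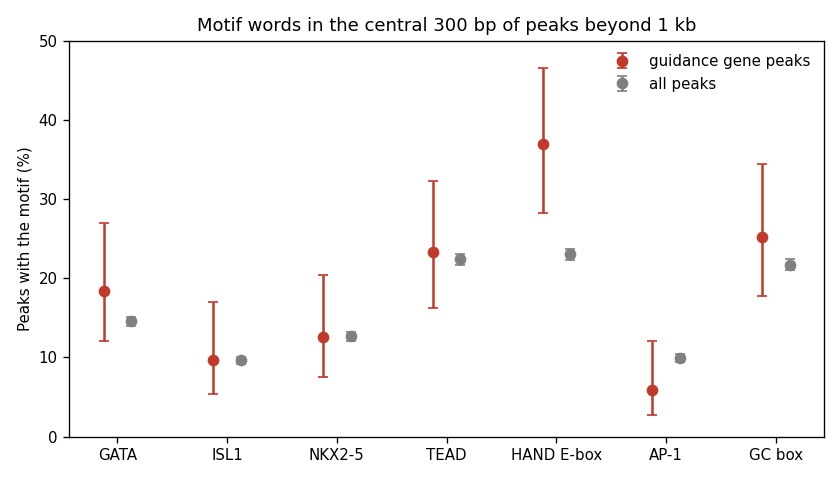
Share of peaks beyond 1 kb with each motif word in the central 300 bp (vertical axis, percent), for 103 guidance gene peaks (red) and all 14460 such peaks (grey), with 95% Wilson intervals as bars. The E-box word stands at 36.9% against 23.0%, and the other intervals overlap the share of all peaks.

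At start sites the words changed places. The GC box was present in 63.3% of the 60 guidance gene peaks within 1 kb (66.5% of all such peaks), the E-box in 13.3% (9.28%) and GATA in 3.33% (3.28%). ISL1 words were in 4 of the 60 (6.67%, 2.62 to 15.9), at Efna1, Efnb1, Epha6 and Unc5d, beside 2.72% of all start site peaks.

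Genes acting below or beside these receptors had peaks as well. All 37 intracellular effectors, modulators and alternative ligands on a list drawn from general knowledge had a peak, beside 62.5% of coding genes, with 2.49 peaks per gene beside 1.71 over all genes with a peak. For 8 of the 37 no peak lay within 1 kb, beside 25.4% of all genes with a peak. Trio, which acts downstream of netrin, had 9, and Chn2, a Rac GTPase-activating protein, and Flrt3, a ligand of Unc5 receptors, had 6 each. As a check of the label, and beside the same 62.5% of coding genes, 9 of 10 cardiac progenitor genes had a peak, with 8 peaks at Isl1 and none at Hand2. Peaks were also listed at 3 of 4 pluripotency genes (not Pou5f1), 2 of 4 endothelial genes (Cdh5 and Pecam1, not Tek or Tie1), 4 of 4 neural genes and 4 of 4 fibroblast genes. The list therefore did not separate cell types by the presence of a peak alone, and how far other cells in the culture contributed to the guidance gene peaks was not tested.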

How the data were processed

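ATAC-Seq libraries of CPCs were prepared from 2 differentiations at day 5. Per the submitters' processing notes and the methods, reads were aligned to mm9 with Bowtie2, duplicates were removed with Picard 1.136, peaks were called with MACS, and peaks common to both replicates were kept with bedtools 2.15. How the peaks were annotated, and whether cut positions were shifted for Tn5, was not given in the sources used here. The authors deposited 1 list of 26429 lines with 6 columns (position, distance, accession, symbol), without counts or scores, so depth was unknown.

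Lines with the same interval were merged to 26232 peaks. Distances are from the assigned start site to the peak midpoint, negative upstream. Chromosome lengths and peaks fitted NCBIM37, whose GENCODE vM1 annotation gave bodies of coding genes, promoters (500 bp on either side of the outermost coding start site) and nearest coding start sites. Peaks were placed in a coding gene, and called intronic or exonic, by their midpoint. CpG-rich promoters had at least 50% GC and 0.6 or more of the CpG expected from base composition. A RefSeq table (GRCm38.p6) served for gene names and for the 21900 protein coding reference genes, and matched 99.8% of the accessions. Reference genes were matched to peaks by accession, or by symbol where no accession matched, and family genes by symbol. Python 3.11.15, numpy 2.4.6, scipy 1.17.1 and pysam 0.24.0 were used, and the scripts were tested on simulated data.

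Named were family genes with 4 or more peaks, the cardiovascular list, genes without a peak, and the 5 widest and 5 most distant peaks; other genes were added after their values were seen. Sequences came from the start site peaks and the cardiovascular distal peaks with the most motif words, leaving out annotated exons and 1 chromosome. The members and lists were chosen with earlier results of these data known. Alternatives covered the peaks counted, widths, assignment, distances and windows.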

Additional observations from a re-analysis of the deposited data

How the results depend on the processing

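Of 56 alternative values for 15 results, 47 stayed within their interval or within 1.5 times the main count, and 9 moved. Keeping only peaks wider than the median of 1081 bp left 77 of 163 guidance gene peaks, 1.40 peaks per gene instead of 2.30 (all genes 1.25), 64.9% within 1 kb (all peaks 66.5%), 6.49% beyond 100 kb (3.06%), a median width of 1652 bp (1434 bp) and 77.1% of family genes with a peak (44.2% of coding genes). These changes follow in part from the selection of wide peaks. With the nearest GENCODE coding start site, 188 peaks belonged to guidance genes and 23.9% lay beyond 100 kb (8.34%). With 50 kb as the limit, the share was 24.5% (17.0%), and a lower limit cannot make it smaller. In the central 200 bp, GATA words were in 11.7% of distal peaks (10.5%), a window that is shorter by construction. The cause of the other changes was not tested.

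Leaving out a replicate was not run, since the list holds no value for each replicate. No paired analysis was possible because the series has 1 group. Peaks found in 1 replicate only are not in the list, and without depth a missing peak cannot be weighed.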
